A study of Mus musculus with 6 samples.

Results

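A set of 9 Hedgehog pathway genes, Shh, Ihh, Dhh, Ptch1, Smo, Gli1, Gli2, Gli3 and Hhip, were followed across 3 sorted cell types of the mouse airway surface. They were chosen by symbol as pathway components, and all 9 were found among the 20315 named genes of the deposited table. Ciliated, club and basal cells of C57BL/6 mice were sorted by flow cytometry and profiled with 2 arrays per cell type. Ciliated cells were gated as EpCAM+, GSIβ4- and CD24+, secretory cells, labelled as club cells, as EpCAM+ and SSEA1+, and basal cells as EpCAM+ and GSIβ4+. The labels give no treatment, mutation or age, call the 2 arrays of a type biological replicates, and do not say how many animals were used or whether cells were pooled, so each p-value measures only the spread between the arrays at hand, which may be technical. All levels are RMA values on a log2 scale, on which 1 unit is a 2-fold difference.

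Hedgehog signalling starts when a secreted ligand binds the receptor Patched. Free Patched holds back Smoothened, and ligand binding lifts that block, so that Smoothened gathers in the primary cilium and the Gli transcription factors are turned into activators. Without signal, Gli3 and in part Gli2 are cut into repressors. Ptch1, Gli1 and Hhip are themselves Gli targets and serve as common readouts of the pathway. In the developing mouse lung the epithelium makes the ligand Shh and the surrounding mesenchyme answers it.

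Of the 9 members, 3 differed between cell types past the test. Smo was low in ciliated cells against both other types, and Gli3 was high in basal cells against both other types. Ptch1 was higher in ciliated than in basal cells by a narrow call, and was not called against club cells. In ciliated minus basal cells 3 of 9 members were called, 1 higher and 2 lower. A call is a limma p, adjusted by Benjamini-Hochberg over all genes, under 0.05, and 17.6 percent of all genes were called in that contrast (9.29 percent higher, 8.28 percent lower). In club minus basal cells 1 of 9 was called, as lower, against 8.02 percent of all genes (4.35 percent higher, 3.67 percent lower). In ciliated minus club cells 1 of 9 was called, as lower, against 15.4 percent of all genes (7.93 percent higher, 7.46 percent lower). Without moderated variances none of the 9 was called in any contrast. In sorted populations, fewer cells of a kind and less RNA per cell cannot be told apart. The arrays of the types did not overlap in 7, 4 and 5 of the 9 members in these contrasts, where 53, 51.4 and 59.3 percent of all genes did not overlap. The median difference of the 9 was -0.11, -0.25 and 0.15, beside -0.022, -0.060 and 0.044 over all genes.

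All 10 ciliated markers rose in ciliated against both other types. All 9 basal markers fell in ciliated and 8 of 9 in club against basal cells. Of 10 club markers, 6 rose in club against basal cells, and 4 fell in ciliated against club cells (median -0.27). Foxj1, the regulator of motile cilia, averaged 10.73 ± 0.59 in ciliated cells, 7.84 ± 0.06 in club cells and 7.73 ± 0.15 in basal cells (SD over 2 arrays). Muc5b, a secreted mucin, was at 11.15 ± 0.60, 13.47 ± 0.30 and 8.43 ± 1.0 in the same order of types, and Krt5, the basal keratin, at 8.59 ± 0.97, 9.08 ± 0.27 and 13.09 ± 0.21. The club marker Scgb1a1, the secretoglobin that defines these cells, was at 14.04 ± 0.23, 14.15 ± 0.23 and 13.04 ± 0.02, and was not called between ciliated and club cells. Cyp2f2 and Cbr2, also club markers, were called in no contrast. Over the 6 arrays Cyp2f2 was at 14.20 to 14.54 and Cbr2 at 14.16 to 14.37, near the array maxima of 14.40 to 14.54. Scgb1a1 was close to these maxima too in ciliated and club cells. So near the top of the scale the arrays may not resolve a difference, and the missing calls do not show equal levels. Scgb1a1, Cyp2f2 and Cbr2 are named after their values were seen. The arrays were alike in scale, with medians over all genes between 6.79 and 6.92. The 2 basal arrays differed by over 1 log2 unit in 613 genes, against 100 for ciliated and 193 for club arrays. The fit gives every type the same spread per gene, so the errors against basal cells may be too small. No detection calls were used here, so no member could be called absent. Levels of different genes come from different probes and are not set against each other.

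The promoter sequences of the 3 members that differed are shown first, because their levels are what the results turn on. The RefSeq promoter table (GRCm38.p6) held windows for 7 of the 9 members, and none for Shh and Gli1. The 250 bases before the start site are printed 5′ to 3′ on the gene's strand, with each CpG dinucleotide in capitals. The Ptch1 sequence is chr13:63565736-63565985, minus strand, before a start site that lies 7725 bases inside the annotated gene. The Smo sequence is chr6:29735247-29735496, plus strand, and the Gli3 sequence is chr13:15463473-15463722, plus strand.
Ptch1: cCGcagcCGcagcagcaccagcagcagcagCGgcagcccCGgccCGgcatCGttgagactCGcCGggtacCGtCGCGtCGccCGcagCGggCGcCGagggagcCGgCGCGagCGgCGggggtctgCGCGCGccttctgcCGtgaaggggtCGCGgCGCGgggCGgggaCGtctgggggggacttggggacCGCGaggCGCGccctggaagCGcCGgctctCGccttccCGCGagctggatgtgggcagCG
Smo: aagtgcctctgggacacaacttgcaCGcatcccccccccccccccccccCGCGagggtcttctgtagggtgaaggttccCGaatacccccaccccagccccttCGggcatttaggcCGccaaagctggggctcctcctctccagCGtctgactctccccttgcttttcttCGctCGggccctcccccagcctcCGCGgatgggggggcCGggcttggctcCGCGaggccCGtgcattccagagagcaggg
Gli3: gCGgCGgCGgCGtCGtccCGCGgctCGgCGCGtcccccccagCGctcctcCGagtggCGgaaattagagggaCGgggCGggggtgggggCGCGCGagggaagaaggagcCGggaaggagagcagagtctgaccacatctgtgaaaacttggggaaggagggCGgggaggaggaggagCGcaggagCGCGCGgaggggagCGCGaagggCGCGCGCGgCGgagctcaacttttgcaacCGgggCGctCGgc
The Ptch1 stretch held 41 CpG dinucleotides, more than 98.9 percent of all promoters in the table. The Gli3 stretch held 34, more than 96.5 percent, and the Smo stretch held 15, more than 72.7 percent. The median over all promoters was 6. The Gli consensus GACCACCCA, searched on both strands in the whole 300-base windows, was in 0 of the 7 member windows and in 83 of 32851 windows of the table, or 0.253 percent. This says only that these letters are not in these windows. The promoters of Shh and Gli1 were not searched, and the Ptch1 window lay inside the annotated gene.

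**Figure D1:**
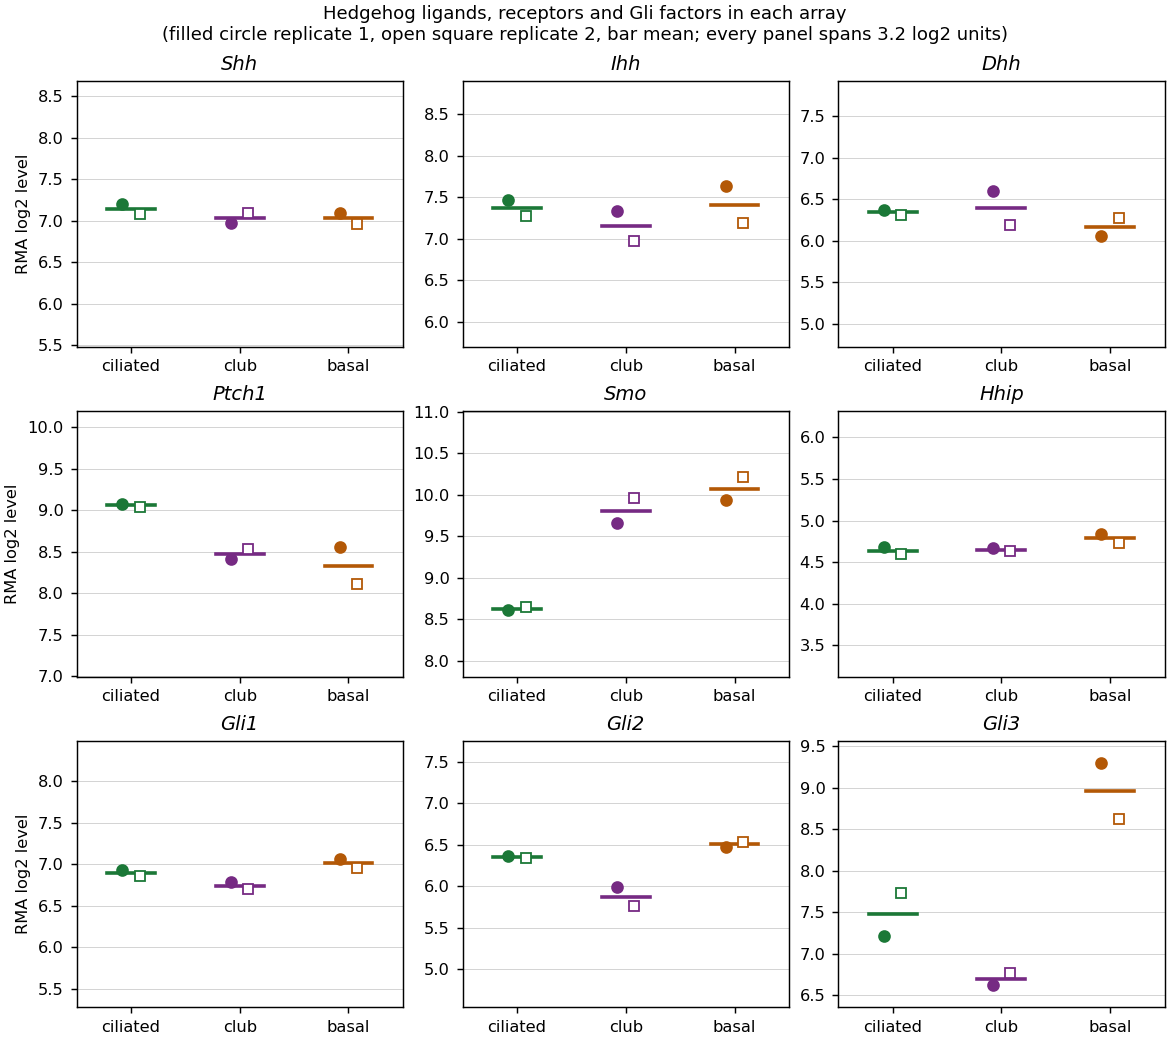
RMA log2 level (vertical axis) of each of the 9 members in the 2 ciliated, 2 club and 2 basal arrays; filled circles are replicate 1, open squares replicate 2 and bars the mean. Every panel spans the same height, so the wide separations of Smo in ciliated cells and Gli3 in basal cells can be compared with the flat panels of the ligands, Gli1 and Hhip.

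No difference between the cell types was called for any of the 3 ligands. Shh, the ligand of the embryonic lung epithelium, was at 7.20 and 7.07 in the ciliated arrays, 6.98 and 7.09 in the club arrays and 7.09 and 6.97 in the basal arrays. The 3 types overlapped, and the whole range over the 6 arrays was 0.235. Ihh, the ligand best known from cartilage and gut, was at 7.46 and 7.27 in ciliated, 7.34 and 6.97 in club and 7.63 and 7.19 in basal cells, again overlapping. Dhh, the ligand of Schwann cells and the testis, was at 6.37 and 6.31 in ciliated, 6.60 and 6.19 in club and 6.05 and 6.28 in basal cells. Both ciliated arrays lay above both basal arrays for Dhh, by less than the club arrays differed from each other. With limma, 0 of the 3 ligands passed in each contrast and 0 had an unadjusted p under 0.05. Of all 20315 genes, 5647 had an unadjusted p under 0.05 between ciliated and basal cells. The number was 4392 for club against basal cells and 5456 for ciliated against club cells. Called were 17.6, 8.02 and 15.4 percent of all genes in the same order. Most genes were thus not called either, and a count of 0 among 3 does not set the ligands apart. The fit's 95% intervals of the difference, ciliated minus basal, ran from -0.25 to 0.47 for Shh, from -0.54 to 0.46 for Ihh and from -0.26 to 0.62 for Dhh. Over all 3 ligands and all 3 contrasts no interval reached a 2-fold difference in array level. Without detection calls, whether these levels lay above background was not tested, so the intervals do not show equal amounts of RNA.

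Of the genes that lipidate, release or carry the ligand, 2 of 8 fell in ciliated cells against basal cells and none rose, with a list median of 0.077. Of all genes, 8.28 percent fell and 9.29 percent rose in that contrast. Hhat, the acyltransferase that palmitoylates the ligand, was at 5.50 and 5.07 in ciliated cells and 6.23 and 6.41 in basal cells. Its difference was -1.03 ± 0.21 (SE, limma adjusted p = 0.012), and its call ended without ciliated replicate 2 (-0.82, adjusted p = 0.0998). Ext1, which builds the heparan sulfate that binds the ligand, was at 8.28 and 8.22 in ciliated and 9.33 and 9.13 in basal cells, lower by 0.99 ± 0.16 (limma adjusted p = 0.0041). Club cells lay between for both genes, Hhat at 5.83 and 5.52 and Ext1 at 8.77 and 8.84. No gene of this list was called by limma in club minus basal or ciliated minus club, where 2 and 3 had an unadjusted p under 0.05. Disp1, the transporter that releases the ligand, was at 9.87 and 9.89 in ciliated, 9.35 and 9.52 in club and 9.55 and 9.74 in basal cells, and was called in no contrast.

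Smo was the member that set ciliated cells apart from both other types. Smo, the membrane protein that carries the signal inward, was at 8.61 and 8.65 in the ciliated arrays, 9.66 and 9.96 in the club arrays and 9.94 and 10.21 in the basal arrays. Both ciliated arrays lay below every other array, while club and basal arrays overlapped. Smo fell by 1.45 ± 0.18 in ciliated against basal cells, a 2.73-fold lower level (limma adjusted p = 0.0013). It fell by 1.18 ± 0.18 in ciliated against club cells, a 2.27-fold lower level (limma adjusted p = 0.0041). Club minus basal was -0.26 ± 0.18 and was not called (limma adjusted p = 0.45, 95% interval from -0.69 to 0.16). Leaving out any single array kept both calls, with limma adjusted p of at most 0.018 against basal and 0.043 against club cells.

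Ptch1 moved opposite to Smo in ciliated cells. Ptch1, the receptor that restrains Smoothened, was at 9.07 and 9.04 in ciliated, 8.41 and 8.53 in club and 8.55 and 8.11 in basal cells. Both ciliated arrays lay above the other 4, and club and basal arrays overlapped. Ptch1 rose by 0.72 ± 0.19 in ciliated against basal cells, a 1.65-fold higher level (limma adjusted p = 0.036). Against club cells the difference was 0.59 ± 0.19 and was not called (limma adjusted p = 0.083). The Ptch1 call was narrow. It ended without basal replicate 2 (difference 0.50), ciliated replicate 1 (0.71) or ciliated replicate 2 (0.74), and held without basal replicate 1 (0.94). The call also ended with quantile normalization applied again (limma adjusted p = 0.057), an intensity trend (0.062), ciliated and basal arrays alone (0.062) and a fit over all probe sets (0.080). Leaving out either club array gave the same fit of this contrast as ciliated and basal arrays alone, so it is not a further loss.

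Hhip, a membrane protein that binds and traps the ligand, was at 4.68 and 4.60 in ciliated, 4.67 and 4.63 in club and 4.84 and 4.73 in basal cells. Both basal arrays lay above the other 4, by at most 0.25 over the whole range, and Hhip was called in no contrast (limma adjusted p of at least 0.62). Its mean lay below the lower quartile of all genes, 5.67, so it was the dim member of the 9, and its narrow range says little about the gene.

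**Figure D2:**
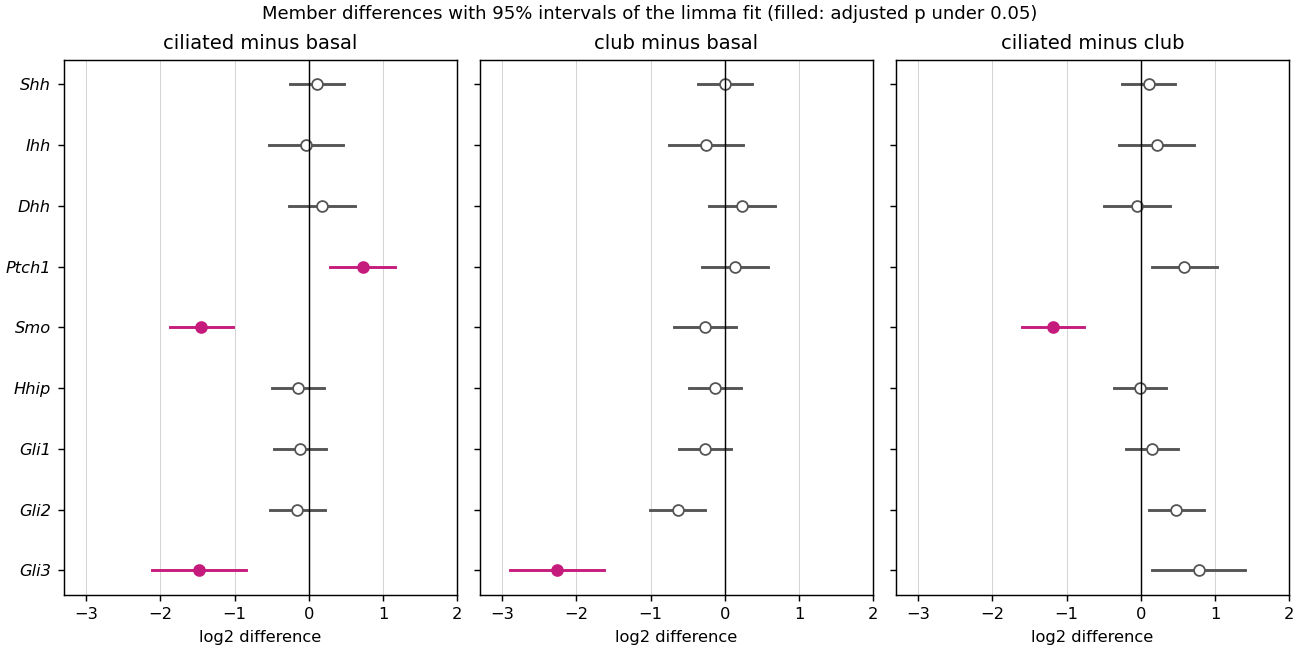
Log2 difference (horizontal axis) of each member in the 3 contrasts, with the 95% interval of the limma fit as a line; filled pink points passed at an adjusted p under 0.05. Smo is the only member called in both contrasts of ciliated cells, and Gli3 the only one called in both contrasts with basal cells.

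Of the Gli factors, Gli3 showed the widest range over the 6 arrays of the 9 members, 2.67. Gli3, which acts mainly as a repressor, was at 7.22 and 7.74 in ciliated, 6.63 and 6.77 in club and 9.30 and 8.62 in basal cells. Both basal arrays lay above all others, and both ciliated arrays above both club arrays. Gli3 fell by 1.48 ± 0.27 in ciliated against basal cells (limma adjusted p = 0.0079) and by 2.26 ± 0.27 in club against basal cells (limma adjusted p = 0.0027), levels 2.79-fold lower in ciliated and 4.79-fold lower in club than in basal cells. Ciliated minus club was 0.78 ± 0.27 and was not called (limma adjusted p = 0.10), so the order of ciliated and club cells is not settled. The basal arrays differed by 0.675 and the ciliated arrays by 0.515. Without ciliated replicate 1 the ciliated minus basal difference was -1.22 and lost its call (limma adjusted p = 0.071).

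Gli2, an activator in most settings, was lowest in club cells. Its level was 6.37 and 6.34 in ciliated, 5.99 and 5.76 in club and 6.47 and 6.54 in basal cells, with the 3 types not overlapping. Club minus basal was -0.63 ± 0.16 (limma adjusted p = 0.056) and ciliated minus club 0.48 ± 0.16 (limma adjusted p = 0.092), and neither was called. Gli1, an activator and a target of the pathway, was at 6.93 and 6.86 in ciliated, 6.79 and 6.70 in club and 7.06 and 6.96 in basal cells. By mean level the order of Gli1 was the same as that of Gli2 and Gli3, basal above ciliated above club. Of these differences only those of Gli3 against basal cells were called, so a shared order is not settled. Gli1 had a range of 0.364 over the 6 arrays and was called in no contrast (limma adjusted p of at least 0.36).

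A few markers of other cells were, like Gli3, higher in basal cells. Of 11 fibroblast markers, 2 fell in ciliated and 2 in club cells against basal cells, where 8.28 and 3.67 percent of all genes fell. Dcn, a proteoglycan of connective tissue, was at 6.64 and 8.03 in ciliated, 7.98 and 7.61 in club and 12.30 and 12.13 in basal cells, and Fbln1, a fibulin, averaged 7.03 ± 0.08, 6.67 ± 0.01 and 9.33 ± 0.23. The collagen genes Col1a1, Col1a2 and Col3a1 were not called in any contrast. The mean level over the 11 markers was 5.99 to 6.01 in ciliated, 5.85 to 5.90 in club and 6.62 to 6.70 in basal arrays, while the median difference was -0.043 in ciliated and -0.23 in club against basal cells, with 9 of 11 not called. Of 10 leukocyte markers, Cd74, Laptm5 and Tyrobp fell and Lyz2 rose in ciliated and in club cells against basal cells. The list had means per array of 6.68 to 7.02, 6.73 to 6.77 and 7.23 to 7.32 in ciliated, club and basal arrays. Markers of smooth muscle, endothelium, chondrocytes, neuroendocrine and Schwann cells had 0 calls with limma in all 3 contrasts, and at most 2 of a list had an unadjusted p under 0.05. The basal gate was set on EpCAM+ and GSIβ4+ cells, and how well it kept out other cells was not tested. Epcam, the gene of the sorted antigen EpCAM, averaged 10.07 ± 0.06 in ciliated and 9.96 ± 0.04 in club cells. Its level was 9.71 and 8.94 in the basal arrays. Epcam is 1 of 5 genes listed for the sorted antigens. Of these, 1 rose and 1 fell in ciliated against basal cells, and 2 rose and 1 fell in club against basal cells. Ggta1 averaged 6.20, 6.29 and 9.13 in ciliated, club and basal cells, and Cd24a 13.49, 12.97 and 11.29. Fut4 averaged 5.40, 5.18 and 5.36 and Fut9 5.30, 7.46 and 4.68 in the same order. Values on this scale have no zero, and the part of other cells in the Gli3, Gpc3 and Osr1 differences was not tested.

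At the cell surface, the genes that act with Patched differed in which type was low, and Gpc3 was the 1 gene called lower in both ciliated and club cells. Of 7 measured co-receptors and surface regulators, 3 fell in ciliated and 2 in club cells against basal cells, and none rose (1 rose and 1 fell in ciliated against club cells). The list medians against basal cells were -0.35 and -0.26. Against basal cells 8.28 percent of all genes fell in ciliated and 3.67 percent in club cells. In ciliated against club cells 7.93 percent of all genes rose and 7.46 percent fell. Boc, a co-receptor that presents the ligand to Patched, was at 7.72 and 7.74 in ciliated, 9.35 and 9.70 in club and 9.87 and 9.65 in basal cells. As with Smo, both ciliated arrays lay below all others while club and basal arrays overlapped. Boc fell by 2.03 ± 0.18 in ciliated against basal cells (limma adjusted p = 0.00023). Its difference in ciliated minus club cells was -1.79 ± 0.18 (limma adjusted p = 0.00055). Cdon, its close relative, was instead low in club cells, at 9.36 and 9.02 in ciliated, 8.48 and 8.31 in club and 9.55 and 9.43 in basal cells. It fell by 1.10 ± 0.18 in club against basal cells (limma adjusted p = 0.011) and rose by 0.79 ± 0.18 in ciliated against club cells (limma adjusted p = 0.023). The second Cdon call ended without ciliated replicate 1 (adjusted p = 0.154), club replicate 1 (0.0763) or club replicate 2 (0.132), and the club minus basal call without club replicate 2 (0.0766). Gas1 and Lrp2, other ligand-binding surface proteins, were called in no contrast.

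The glypican Gpc3 was high in basal cells. Gpc3, which binds the ligand and dampens signalling in the mouse embryo, was at 6.10 and 6.27 in ciliated, 5.98 and 6.43 in club and 8.74 and 9.14 in basal cells. It fell by 2.76 ± 0.22 in ciliated and by 2.73 ± 0.22 in club cells against basal cells (limma adjusted p of 0.00012 and 0.00056). Gpc6, another glypican, averaged 6.36 ± 0.12 in ciliated and 7.06 ± 0.07 in basal cells and fell by 0.70 ± 0.19 (limma adjusted p = 0.042). That call ended without basal replicate 1 (adjusted p = 0.102), basal replicate 2 (0.0702), ciliated replicate 1 (0.123) or ciliated replicate 2 (0.240).

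**Figure D3:**
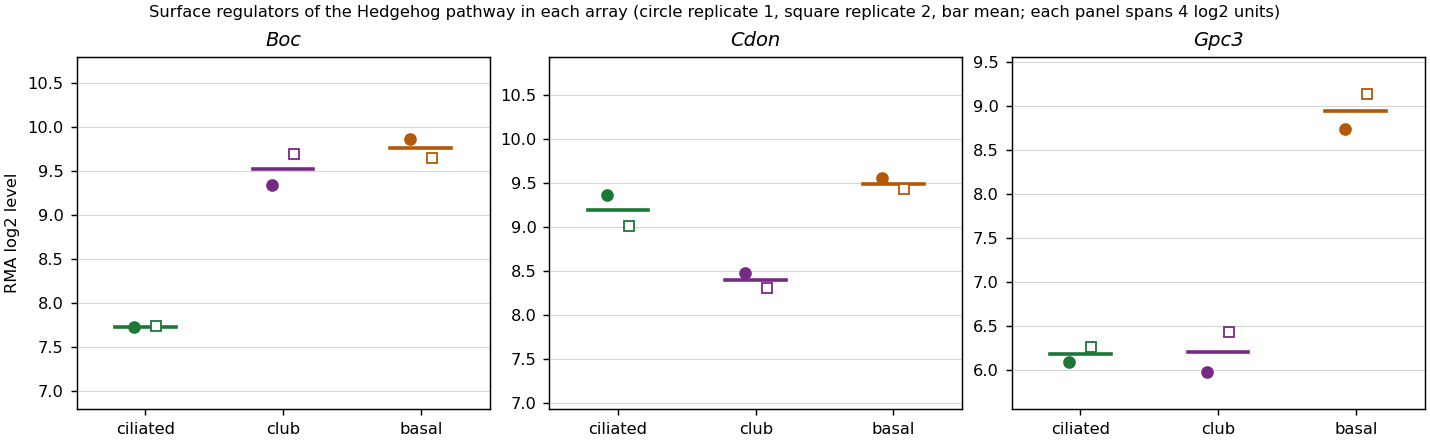
RMA log2 level (vertical axis) of Boc, Cdon and Gpc3 in the 2 ciliated, 2 club and 2 basal arrays; filled circles are replicate 1, open squares replicate 2 and bars the mean. Boc is low in ciliated cells, Cdon is low in club cells, and Gpc3 is high in basal cells.

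Of 26 measured genes of signal transduction, 8 rose and 2 fell in ciliated against basal cells (median 0.27), 1 rose and 1 fell in club against basal cells (median -0.0047), and 5 rose in ciliated against club cells (median 0.18). Over all genes 9.29, 4.35 and 7.93 percent rose and 8.28, 3.67 and 7.46 percent fell in these contrasts. The largest rises of the list were those of Ulk4 and Stk36. Ulk4, a pseudokinase, was at 11.32 and 10.98 in ciliated, 6.89 and 7.06 in club and 6.84 and 7.12 in basal cells, higher by 4.17 ± 0.19 against basal cells (limma adjusted p = 9.8e-06). Stk36, the mouse Fused kinase, which is needed for the central pair of motile cilia, was at 10.07 and 10.09 in ciliated, 6.71 and 7.18 in club and 6.86 and 6.99 in basal cells, higher by 3.15 ± 0.19 (limma adjusted p = 3.5e-05). Both ciliated arrays of each gene lay far above the other 4.

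Iqce and Efcab7, which hold the Evc complex at the base of the cilium, rose as well, while Evc itself fell. Iqce was higher in ciliated than in basal cells by 1.76 ± 0.22 and Efcab7 by 1.40 ± 0.16, and Evc was lower by 1.03 ± 0.15 (limma adjusted p of 0.0013, 0.00079 and 0.0031). Evc, which binds Smoothened, was at 6.83 and 6.70 in ciliated, 6.68 and 6.82 in club and 7.76 and 7.85 in basal cells. It was lower in club than in basal cells by 1.05 ± 0.15 (limma adjusted p = 0.0072), a call that ended without club replicate 1 (adjusted p = 0.0589). Mgrn1, a ubiquitin ligase that removes Smoothened from the cell surface in mouse cells, was lowest in basal cells, at 9.91 and 9.94 in ciliated, 10.09 and 10.10 in club and 9.03 and 8.94 in basal cells. It rose by 0.93 ± 0.15 in ciliated against basal cells (limma adjusted p = 0.0040) and by 1.11 ± 0.15 in club against basal cells (limma adjusted p = 0.0045). Sufu, the main inhibitor of the Gli proteins, averaged 8.13 ± 0.03 in ciliated cells, 8.36 ± 0.13 in club cells and 8.89 ± 0.19 in basal cells. It fell by 0.75 ± 0.17 in ciliated against basal cells (limma adjusted p = 0.019), a call that ended without basal replicate 1 (adjusted p = 0.0617), ciliated replicate 1 (0.112) or ciliated replicate 2 (0.108). Sufu is named here after its values were seen.

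A list of 26 genes on which the primary cilium depends covered its transport and the gate at its base, among other parts. Motile cilia use these genes too. In ciliated cells 23 of 26 rose against basal cells (median 2.05) and 22 of 26 against club cells (median 2.10), with none called lower. Among all genes 9.29 and 7.93 percent rose in these contrasts. The 3 genes of the list not called against basal cells, named after their values were seen, were Arl13b (1.05), Ttc21b (-0.30) and Ofd1 (-0.052). Ift88, of the trains that run along the cilium, was at 10.57 and 10.50 in ciliated, 7.74 and 7.75 in club and 7.38 and 7.68 in basal cells, a difference of 3.01 ± 0.16 from basal cells (limma adjusted p = 2e-05). The dynein genes Dync2li1 and Dync2h1 were higher by 3.01 ± 0.17 and 2.70 ± 0.19, and Wdr19 by 2.71 ± 0.17. Against club cells Rpgrip1l and Tctn2, of the gate at the base of the cilium, were higher by 2.77 ± 0.15 and 2.70 ± 0.21. All 10 ciliated cell markers rose in the same contrasts, and their part in these rises was not tested. In club minus basal cells Tulp3 was the 1 gene of the list called. Tulp3, which brings the inhibitory receptor Gpr161 into the cilium, was at 10.31 and 10.23 in ciliated, 7.62 and 7.72 in club and 9.02 and 9.51 in basal cells. It was lower in club than in basal cells by 1.59 ± 0.19 and higher in ciliated than in club cells by 2.60 ± 0.19 (limma adjusted p of 0.0031 and 0.00012).

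**Figure D4:**
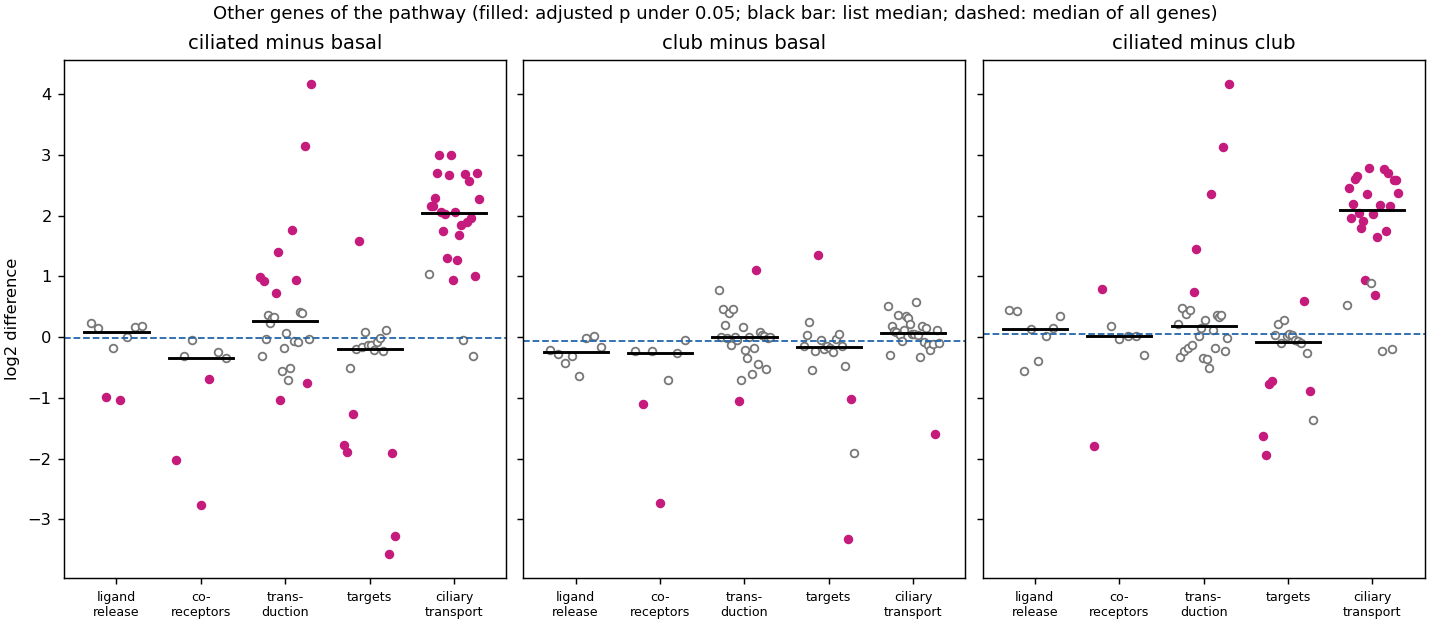
Log2 difference (vertical axis) of each gene of the 5 lists of other pathway genes in the 3 contrasts; filled points passed at an adjusted p under 0.05, black bars are list medians and the dashed line is the median of all genes. The median of the primary cilium genes lies near 2 in both contrasts of ciliated cells, and the co-receptor points that passed against basal cells are all below 0.

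Of 18 measured genes described as Hedgehog targets in some tissue, 6 fell and 1 rose in ciliated against basal cells (median -0.20), 2 fell and 1 rose in club against basal cells (median -0.16), and 5 fell and 1 rose in ciliated against club cells (median -0.073). Many of these targets answer other pathways too. In the same contrasts 8.28, 3.67 and 7.46 percent of all genes fell and 9.29, 4.35 and 7.93 percent rose. Osr1, a zinc-finger factor of the embryonic foregut mesoderm, was at 6.43 and 7.04 in ciliated, 7.11 and 6.87 in club and 9.95 and 10.67 in basal cells. It fell by 3.58 ± 0.29 in ciliated and 3.32 ± 0.29 in club cells against basal cells (limma adjusted p of 0.00015 and 0.0008). Rab34, a small GTPase needed to build cilia, fell in all 3 contrasts, with 6.56 and 6.16 in ciliated, 7.36 and 7.14 in club and 8.14 and 8.40 in basal cells. Its differences were -1.91 ± 0.20 for ciliated minus basal, -1.02 ± 0.20 for club minus basal and -0.89 ± 0.20 for ciliated minus club (limma adjusted p of 0.00055, 0.024 and 0.023). The second ended without basal replicate 2 (adjusted p = 0.0753) or club replicate 1 (0.0739) or 2 (0.138), and the last without ciliated replicate 2 (0.161) or club replicate 1 (0.142) or 2 (0.0599).

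Bmp4, a growth factor, and Bcl2, which protects from cell death, resembled Smo in being low in ciliated cells. Bmp4 was at 7.56 and 7.53 in ciliated, 9.72 and 9.24 in club and 10.20 and 8.67 in basal cells, and Bcl2 at 7.10 and 6.88, 8.69 and 8.56, and 9.45 and 8.09 in the same types. In ciliated minus club cells Bmp4 fell by 1.93 ± 0.44 and Bcl2 by 1.63 ± 0.39 (limma adjusted p of 0.025 and 0.029). Both calls ended without either ciliated or either club array (adjusted p from 0.0556 to 0.151 for Bmp4 and from 0.0908 to 0.18 for Bcl2). Bmp4 was also lower in ciliated than in basal cells, by 1.90 ± 0.44 (limma adjusted p = 0.024), a call lost without ciliated replicate 1 (0.131) or 2 (0.151). Sfrp1, a Wnt antagonist, was at 6.30 and 6.31 in ciliated and 10.91 and 8.26 in basal cells, so its fall of 3.28 ± 0.72 rests on basal arrays that differ widely (limma adjusted p = 0.018), and the call ended without ciliated replicate 1 (0.114) or 2 (0.125). Cdk6, a kinase of the cell cycle, ran the other way, with 10.07 and 10.63 in ciliated, 10.19 and 10.07 in club and 8.96 and 8.58 in basal cells. It rose by 1.36 ± 0.23 in club against basal cells (limma adjusted p = 0.013), a call lost without club replicate 1 (0.0789) or 2 (0.0595). Ccnd1, cyclin D1, fell by 0.77 ± 0.19 in ciliated against club cells (limma adjusted p = 0.031), a call lost without either ciliated or either club array (0.0777 to 0.171).

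The genes most like each called member were found by the root mean square distance between values centred on each gene's mean over the 6 arrays. Clec16a (0.045 log2 units), the kinase gene Dyrk2 (0.081) and Eif4g3 (0.086) were nearest to Ptch1. Clec16a was at 9.45 and 9.45 in ciliated, 8.86 and 8.86 in club and 8.87 and 8.50 in basal cells, with the same high ciliated arrays and low basal replicate 2 as Ptch1. Rpl36a (0.085) and Rps23 (0.10), which encode ribosomal proteins, and the kinase gene Mapkapk3 (0.10) were nearest to Smo. Procr (0.16), Fscn1 (0.18) and Mreg (0.19) were nearest to Gli3. Procr, the protein C receptor, was at 7.72 and 7.98 in ciliated, 7.01 and 7.50 in club and 9.89 and 9.21 in basal cells. These distances describe 6 arrays and carry no test.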

How the data were processed

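Total RNA of sorted ciliated, club and basal cells was biotin-labelled and hybridised to 6 arrays, per the labels' protocols. RMA, which corrects background, quantile-normalizes and summarises probes on a log2 scale, is named in the submitters' processing notes without a version. Array platform and genome build: not given in the sources used here. Deposited by the authors were log2 values for 35556 probe sets and 1 log2 value per gene symbol and array, per the file headers. The deposited score per gene and cell type is a z-score that the authors calculated from these 6 log2 values, per the file headers. Each member's 6 values equalled 1 probe set within 1e-06. A line with no gene name (1) was left out, and 18 columns of another study were not used.

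One mean per cell type was fitted to the 20315 genes with limma 3.58.1 in R 4.3.3 with empirical Bayes moderation. P-values were adjusted by Benjamini-Hochberg over all genes of a contrast and called under 0.05. With 2 arrays per type, the number of arrays limits precision. No dim genes were filtered. The script was tested on simulated data. The members and the lists of other pathway genes and markers were chosen with earlier results of these data known. The text names the 9 members, up to 4 called genes per list and contrast with the largest difference, the 3 genes nearest to each called member, and type markers; other names came after seeing values. Alternatives tried were renewed quantile normalization, median centring, cyclic loess, a filter on dim genes, an intensity trend, array weights, fits of the compared types alone, a replicate block, no moderation, leaving out each array, and, added after the data were seen, a fit over all probe sets. Of 87 pathway genes listed, 85 were measured, with Mosmo and Prkaca not found by symbol. A result on a further gene is not reported here.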

Additional observations from a re-analysis of the deposited data

How the results depend on the processing

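Of the 5 member differences called, 2 for Smo, 2 for Gli3 and 1 for Ptch1, those of Smo and Gli3 kept their call under every alternative that keeps all 6 arrays except the linear model without moderation. Without moderation the differences were the same in size (Smo -1.45 and -1.18, Gli3 -1.48 and -2.26, Ptch1 0.72) and 0 of 9 members were called in each contrast, with 3, 3 and 2 at an unadjusted p under 0.05. The calls of other pathway genes then numbered 25 for ciliated minus basal, 0 for club minus basal (20 at an unadjusted p under 0.05) and 17 in ciliated minus club, against 45, 8 and 35 with limma. Calls over all genes fell as well, to 1222, 6 and 836, from 3570, 1629 and 3126 with limma. The Ptch1 call, ciliated minus basal, was also lost with quantile normalization applied again (0.70, adjusted p = 0.057), with an intensity trend (0.72, adjusted p = 0.062), with only the 2 types compared (0.72, adjusted p = 0.062) and over all probe sets (0.72, adjusted p = 0.080). The count of members called rose to 2 in club minus basal with an intensity trend, where Gli2 passed, and in ciliated minus club to 2 with array weights, where Ptch1 passed, and to 3 with only the 2 types compared, where Ptch1 and Gli3 passed. Why these calls changed was not tested.

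Leaving out 1 array at a time, with a lone array assumed to vary like the other types, gave 1 to 3 members called for ciliated minus basal, 1 for club minus basal and 1 to 3 in ciliated minus club, in all 3 to 7 of the member differences. Other pathway genes called ranged from 33 to 45, 5 to 10 and 25 to 39; the 5 in club minus basal came without club replicate 1 and without club replicate 2. Calls over all genes also varied with the array left out, so these counts do not single out the members or the pathway genes. Ranges of the called differences, ciliated minus basal, were 0.50 to 0.94 for Ptch1, -1.58 to -1.31 for Smo and -1.82 to -1.14 for Gli3. The Gli3 call there was lost without ciliated replicate 1 (-1.22, adjusted p = 0.071). Gli3 ran from -2.60 to -1.92 in club minus basal and Smo from -1.34 to -1.03 in ciliated minus club. The sign changed only in differences that were not called: Ihh in ciliated minus basal (0.086 with cyclic loess, -0.26 to 0.18 over left-out arrays), Shh (-0.058 to 0.067) and Ptch1 (-0.082 to 0.36) in club minus basal, and Dhh (-0.25 to 0.15) and Hhip (-0.054 to 0.032) in ciliated minus club. No scaling moved the median of all genes by over 0.083.

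The labels number the replicates but do not say that the numbers pair the samples, and the main fit did not pair them. Deviations of same-numbered arrays correlated at 0.052 between ciliated and basal cells, 0.26 between club and basal and 0.26 between ciliated and club. Whether same-numbered arrays share a source was not tested. With the replicate block 3, 1 and 1 members were called, as without it. Over all genes the block raised the calls from 3570 to 4104 in ciliated minus basal cells. The rise was from 1629 to 2024 in club minus basal and from 3126 to 3739 in ciliated minus club cells.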

Other observations

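The authors' deposited table gives each gene a z-score per cell type, scaled by the gene's own spread over the 6 arrays. In the authors' deposited table the basal z-score was 1.55 for Hhip and 1.66 for Gli3. The fitted differences behind them were far apart: ciliated minus basal was -0.15 for Hhip and -1.48 for Gli3, and club minus basal -0.14 for Hhip and -2.26 for Gli3. Likewise, the authors' deposited table gave the club z-score of Gli2 as -1.72 and that of Gli1 as -1.53, although neither was called in a contrast with club cells. Smo had -1.77 and Ptch1 1.66 in ciliated cells in the authors' deposited table.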
